A study of Homo sapiens with 6 samples.

Results

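The genes described here are 9 transcription factors that act in turn as intestinal progenitors become enteroendocrine cells, the hormone-secreting cells of the gut lining: NEUROG3, NEUROD1, INSM1, ISL1, PAX4, PAX6, RFX6, NKX2-2 and FEV. They were taken by gene symbol from the platform annotation, with no filter on dim probe sets. This gave 11 probe sets for 8 of the 9 genes, out of 54674 probe sets in the table. NEUROD1 had no probe set under its symbol in the annotation used and has no value here. The cells were LS174T, an established human colon adenocarcinoma line that makes mucin. Of 6 cultures, 3 were kept for 48 h in CompE at 250 nM and 3 in its vehicle, DMSO, and RNA from each was hybridised to 1 Affymetrix array. The labels give the name CompE alone; it commonly stands for Compound E, which blocks gamma-secretase, the enzyme that cuts activated Notch receptors so that their inner part can reach the nucleus. The comparison asks how these factors respond to CompE in a colon line with a secretory character.

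In the intestinal crypt, Notch signalling induces HES repressors, which hold down bHLH activators such as ATOH1. Cells that escape Notch express ATOH1 and enter the secretory lineages, and a small share of them then switch on NEUROG3 for a short time. NEUROG3 is the bHLH factor required for the endocrine fate, and it acts upstream of NEUROD1, INSM1, PAX4 and NKX2-2, while ISL1, PAX6 and FEV act in maturing endocrine cells and help to set which hormone or amine a cell makes.

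The promoters of NEUROG3 and ISL1 are shown because these were the members with the smallest p in the comparison among those measured above background, and because HES factors and bHLH activators bind short motifs in such regions. Each line gives the 250 bases before the RefSeq gene start (GRCh38.p14), 5' to 3' on the gene's strand. NEUROG3 lies on the minus strand at chr10:69573423-69573672 and ISL1 on the plus strand at chr5:51383198-51383447. Capitals mark matches, on either strand, to the E-box CANNTG of bHLH activators, the N-box CACNAG of HES factors, or the class C site CACGCG of HES and HEY factors.
NEUROG3: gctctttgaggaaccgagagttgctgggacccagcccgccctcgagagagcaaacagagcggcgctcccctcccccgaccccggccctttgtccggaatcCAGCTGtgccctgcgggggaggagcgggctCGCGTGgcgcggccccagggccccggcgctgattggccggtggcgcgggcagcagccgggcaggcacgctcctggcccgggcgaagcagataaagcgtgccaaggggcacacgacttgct
ISL1: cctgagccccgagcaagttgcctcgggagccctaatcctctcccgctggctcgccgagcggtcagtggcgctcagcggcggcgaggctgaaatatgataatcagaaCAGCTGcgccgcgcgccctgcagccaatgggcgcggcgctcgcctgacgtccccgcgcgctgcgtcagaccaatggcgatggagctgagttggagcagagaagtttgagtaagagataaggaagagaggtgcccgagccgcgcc
Both genes held 1 E-box with the letters CAGCTG, which begins 150 bases before the start of NEUROG3 and 144 bases before that of ISL1. NEUROG3 also held 1 class C site on the opposite strand, which begins 120 bases before the start. Neither held an N-box in the window of 300 bases that runs from 250 before to 50 after the start. Among all 35116 RefSeq windows of this length, 68.7% held an E-box, 17.9% held the letters CAGCTG, 11.4% held a class C site and 38.0% an N-box. Windows were found for 7 of the 9 genes (17 windows, 9 of them for PAX6); 4 genes had an E-box, 3 an N-box and 3 a class C site in at least 1 window. These matches describe the letters alone.

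Background was read from 27 probe sets that target transcripts of the bacterium Bacillus, absent from human RNA. The 95th percentile of their mean log2 intensities was 5.51, an intensity of 45.7, and a group mean above it is called above background here. By this measure 4 of the 11 probe sets were above background in both groups (ISL1, FEV and both of PAX6), 1 was above it in CompE only (NEUROG3), and 6 were below it in both groups (both of INSM1, both of PAX4, and those of RFX6 and NKX2-2). The same 5 probe sets were above background on every array of at least 1 group when each array was judged against its own Bacillus probe sets.

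**Figure D1:**
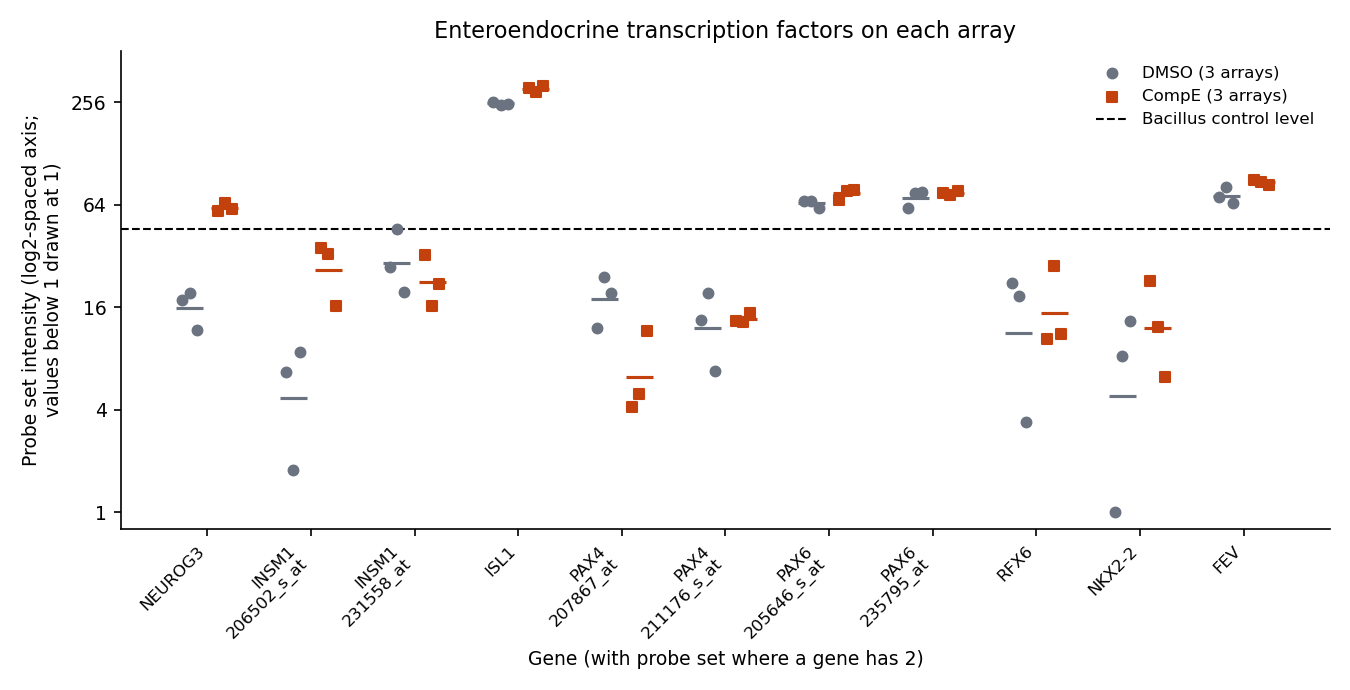
Intensity of each of the 11 probe sets on each of the 6 arrays (vertical axis spaced by log2, horizontal axis the genes; circles DMSO, squares CompE, short bars the mean of the log2 values in a group, dashed line the Bacillus control level of 45.7). NEUROG3 crosses the dashed line between the groups, ISL1, PAX6 and FEV lie above it in both, and the other probe sets have group means below it.

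NEUROG3, the gene that opens the endocrine programme, had intensities of 17.6, 19.4 and 11.7 on the 3 DMSO arrays and of 58.7, 65.5 and 60.3 on the 3 CompE arrays. All DMSO values were below the Bacillus level of their own array and all CompE values above it, with no overlap. The means were 16.2 ± 4.03 and 61.5 ± 3.54 (SD, n = 3 arrays each), a log2 difference of 1.95 (95% interval 1.42 to 2.49). Since the DMSO mean was within background, the difference from DMSO is stated as a bound. The CompE mean was 1.35 times the Bacillus level, which puts the difference in signal at 1.35-fold or more. This bound has no interval, and it holds only if the Bacillus level covers the non-specific signal of this probe set. In the limma fit to all 54612 probe sets that are not Affymetrix controls, this difference did not pass a Benjamini-Hochberg adjusted p of 0.05 (adjusted p = 0.0626, unadjusted p = 0.000207, the 178th smallest of all). The exact permutation test over the arrays gave p = 0.1, the smallest that 3 against 3 arrays allow. In bulk RNA, more NEUROG3-expressing cells and more NEUROG3 RNA per cell cannot be told apart.

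Whether NEUROG3 passed depended on the settings of the fit. When the 40% of probe sets with the lowest mean were left out, the same difference passed with an adjusted p of 0.0112. NEUROG3 stayed in that fit through its CompE values, so that passing the filter is not independent of the difference. With all probe sets kept, it passed with intensities below 16 set to 16 (log2 difference 1.80, adjusted p = 0.00761), on the log2(intensity + 16) scale (1.27, adjusted p = 0.0128), and when limma's eBayes was run with both its trend option, by which the variance follows the mean level, and its robust option (adjusted p = 0.000140). It also passed with 1 probe set for each gene (adjusted p = 0.0238). It did not pass when any array was left out, with adjusted p between 0.132 and 0.261 and log2 differences between 1.73 and 2.10. Over all 15 alternatives that kept NEUROG3, 5 called it, and in each the difference was above 0.

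**Figure D2:**
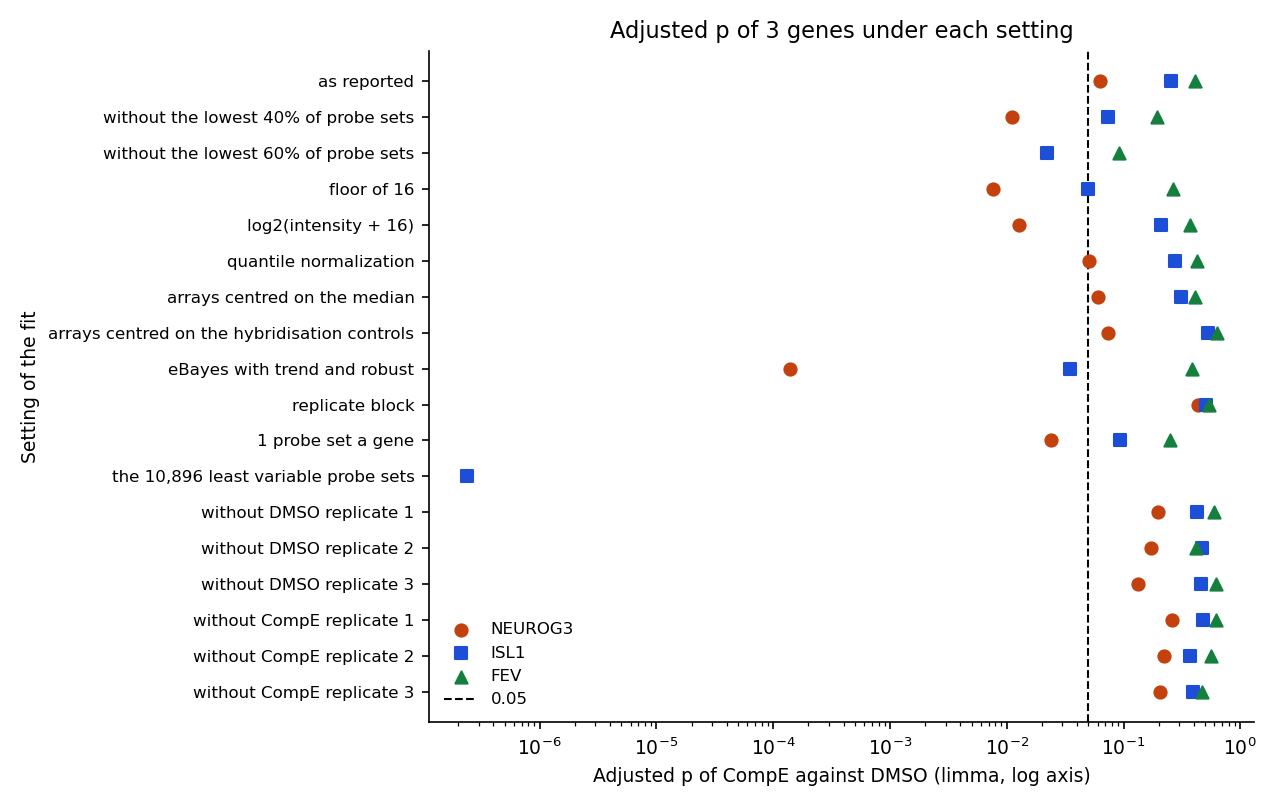
Adjusted p of NEUROG3 (circles), ISL1 (squares) and FEV (triangles) for CompE against DMSO under each setting of the limma fit (horizontal log axis; dashed line 0.05; vertical axis the settings; a missing symbol means that the probe set was left out). NEUROG3 lies left of the line in 5 settings and ISL1 in 4, and FEV in none.

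Of the other genes that act early, INSM1, a zinc finger repressor downstream of NEUROG3, was covered by 2 probe sets that disagreed. The first (206502_s_at) read 6.68, 1.76 and 8.72 in DMSO and 35.3, 32.9 and 16.2 in CompE. These values did not overlap, but all 6 were below background, so the fitted log2 difference of 2.50 (0.71 to 4.30) is not a measured fold. It was 0.73 with intensities below 16 set to 16, and it did not pass as fitted (adjusted p = 0.280). The second (231558_at) read 27.5, 46.0 and 19.7 in DMSO and 32.4, 16.2 and 21.7 in CompE, with full overlap and a log2 difference of -0.38 (-1.42 to 0.66; adjusted p = 0.763). The first probe set passed under 1 of 13 alternatives, the limma fit with the trend and robust options together (adjusted p = 0.0259).

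PAX4, a paired homeobox repressor of endocrine precursors, had lower values in CompE on 1 of its 2 probe sets. That probe set (207867_at) read 12.0, 24.0 and 19.4 in DMSO against 4.17, 4.93 and 11.5 in CompE, apart by a narrow margin and all below background. The fitted log2 difference was -1.52 (-2.74 to -0.30), or -0.29 with a floor of 16, and did not pass (adjusted p = 0.320). The other (211176_s_at) read 13.5, 19.4 and 6.77 against 13.3, 13.1 and 14.7, a log2 difference of 0.18 (-0.84 to 1.20; adjusted p = 0.893). A gene whose probe sets all lie below background has no measured level here, and neither direction can be read for PAX4.

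NKX2-2, a homeobox factor that several endocrine cell types need, and RFX6, a winged helix factor of endocrine differentiation, were also below background on every array. NKX2-2 was listed at 0 on 1 DMSO array and read 8.20 and 13.3 on the others, against 22.9, 12.3 and 6.22 in CompE. RFX6 read 22.1, 18.7 and 3.40 in DMSO and 10.4, 27.9 and 11.04 in CompE. The groups overlapped for both genes, and the intervals of the log2 difference (-1.50 to 4.17 for NKX2-2, -1.80 to 2.59 for RFX6) leave both directions possible (adjusted p = 0.686 and 0.891). A difference in these genes was not detectable at this signal.

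Among the factors of maturing endocrine cells, ISL1, a LIM homeobox factor, read 257, 248 and 250.4 in DMSO and 310, 291 and 317 in CompE. Every CompE array was above every DMSO array, and all 6 were well clear of the Bacillus level. The means were 252 ± 4.92 and 306 ± 13.4 (SD, n = 3 each), a 1.22-fold difference (log2 0.28 ± 0.07 SE, 95% interval 0.09 to 0.47). In the fit to all probe sets this did not pass (limma adjusted p = 0.255, unadjusted p = 0.0118). It passed without the lowest 60% of probe sets (limma adjusted p = 0.0221), with a floor of 16 (0.0497), and with the trend and robust options together (0.0351). It also passed among the 10,896 probe sets least variable within groups (2.36e-07), where 42.2% of the probe sets passed. The test divides by the spread that picked this last set, so that pass is not independent of the selection. With 1 array left out the adjusted p lay between 0.371 and 0.480. When the arrays were centred on their hybridisation controls, the log2 difference was 0.14.

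FEV, an ETS factor of serotonin-producing cells, read 70.8, 80.6 and 65.5 in DMSO and 89.4, 86.7 and 82.9 in CompE. The groups were apart by 2.27 intensity units, less than the SD of the DMSO group (7.64). The 1.20-fold difference (log2 0.26, 95% interval -0.01 to 0.53) did not pass in the limma fit (adjusted p = 0.412) or in any of 16 alternatives. It was 0.12 once arrays were centred on the hybridisation controls.

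PAX6, a paired homeobox factor of hormone gene expression, read 67.3, 67.5 and 61.3 in DMSO and 68.4, 77.2 and 78.2 in CompE on its probe set 205646_s_at. These groups were apart by 0.881 intensity units, and the log2 difference was 0.19 (-0.05 to 0.43; adjusted p = 0.494). Its probe set 235795_at read 61.3, 75.0 and 75.6 against 74.5, 72.8 and 76.6, with overlap and a log2 difference of 0.085 (-0.20 to 0.37; adjusted p = 0.804). Once each array was set against its hybridisation controls, the first difference was 0.047 and the second turned to -0.058. Both intervals include 0, so a difference in PAX6 was not detectable with 3 arrays a group.

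**Figure D3:**
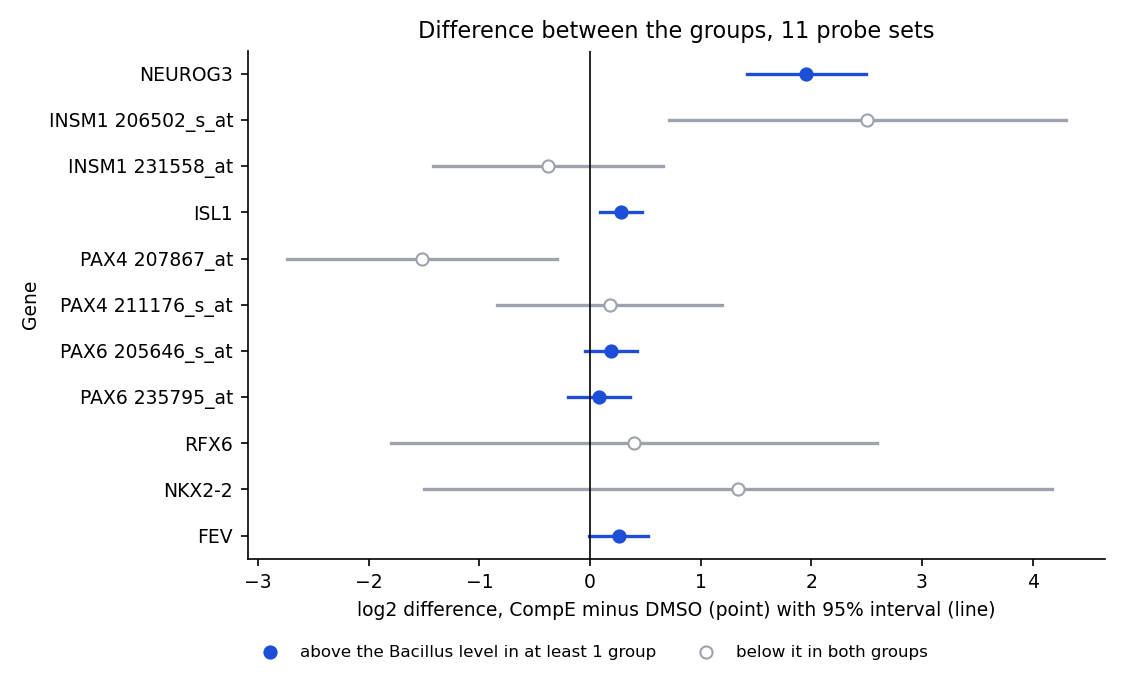
Log2 difference of CompE minus DMSO for the 11 probe sets (points) with the 95% interval of the limma fit (lines). Filled points are probe sets above the Bacillus level in at least 1 group, whose intervals are narrow; open points are below it in both groups, and their intervals span up to several log2 units.

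Across the members, 0 of 11 probe sets passed at an adjusted p of 0.05 in the limma fit, where 0.238% of all probe sets did (130 of 54612; 0.167% higher and 0.0714% lower in CompE). Other settings of the fit called up to 3 of them. The setting that called 3, the trend and robust options together, also called 5.31% of all probe sets. Of the 130 probe sets that passed as reported, 70.0% were higher in CompE. The share was 47.0% once arrays were centred on the hybridisation controls, where the median of all probe sets moved from 0.01 to -0.13. At an unadjusted p under 0.05 there were 4 of 11, namely NEUROG3, ISL1 and 1 probe set of INSM1 with higher values and 1 of PAX4 with lower values, beside 12.4% of all probe sets (7.01% with higher values). The groups did not overlap for 6 of 11 probe sets, 5 of them higher in CompE, where 21.5% of all probe sets did not overlap (11.9% with higher values). Values were higher in CompE for 9 of 11 probe sets, with a median log2 difference of 0.26, beside 51.8% and a median of 0.01 for all probe sets. Probe sets of 1 gene share their target, and the members were chosen with earlier results known, so these shares are descriptions.

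Some array features moved with the groups. For ACTB, the signal at the 3' end over that at the 5' end, which reads RNA integrity, was 1.42 to 1.46 in DMSO and 1.49 to 1.53 in CompE, while the same ratio for GAPDH was 0.958 to 0.979 in DMSO and 0.918 to 0.970 in CompE, with overlap. The hybridisation controls had a mean log2 of 11.61 to 11.63 in DMSO and 11.69 to 11.83 in CompE. The part of these features in the members' differences was not tested, beyond the centring on these controls, under which NEUROG3 differed by 1.81 (adjusted p = 0.0731). The Bacillus level of single arrays ranged from 37.6 to 47.8 in DMSO and from 39.98 to 52.03 in CompE.

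Upstream of the members, part of the list of Notch and secretory switch genes changed. Of its 22 genes, 5 rose, 1 fell and 16 did not pass (limma, adjusted p under 0.05, brightest probe set of each gene), beside 0.389% of all 19775 named genes that passed. The list's median log2 difference was 0.19 against 0.02 for all genes. ATOH1, the bHLH factor of all secretory cells, read 101, 78.9 and 102 in DMSO and 558, 530.3 and 634 in CompE (log2 difference 2.61, adjusted p = 0.0233). HES1, the Notch-induced repressor that holds down both ATOH1 and NEUROG3, read 804, 872 and 756 in DMSO and 307, 306 and 255.6 in CompE (log2 difference -1.49, adjusted p = 0.0340). The groups were far apart for both genes. The other 4 that rose were the Notch ligands DLL4 and DLL1, the receptor NOTCH1, and SOX4, a factor of endocrine precursors (log2 difference 0.80, adjusted p = 0.0385). A dimmer probe set of DLL1 was below background in both groups with a log2 difference of -0.02, and 1 of the other 5 of SOX4 gave -0.05. None of these 6 calls remained when an array was left out, where 0 to 4 of all probe sets passed. HES4, HES5 and NRARP, above background, had lower values in CompE and did not pass. Their log2 differences were -0.53, -0.14 and -0.32 (limma adjusted p = 0.232, 0.521 and 0.250). HES6, also above background, had higher values and did not pass (0.58, limma adjusted p = 0.1245). These genes were named after their values were seen.

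Among 27 further transcription factors of endocrine cells with a probe set, 0 passed in the limma fit, while 6 had an unadjusted p under 0.05, all with higher values in CompE (14.2% of all named genes have such a p in either direction). Their median log2 difference was 0.29. The 6 were FOXA1, FOXA2, ONECUT2, PROX1, RFX3 and ST18, named after their values were seen. Some dimmer probe sets went the other way. That of FOXA1 (237086_at), below background in both groups, was lower in CompE (log2 difference -0.76, limma adjusted p = 0.177). PROX1 242119_at, above background, gave -0.13, and ONECUT2 207676_at, below background, gave -0.38. Below background in both groups, ST18 1570307_s_at gave -0.67, ST18 1557583_at gave -0.05 and RFX3 207234_at gave -0.03. The further probe sets of PROX1, ONECUT2, ST18 and RFX3 had higher values in CompE. PROX1, a homeobox factor of endocrine precursors, read 96.0, 78.5 and 81.8 in DMSO and 197, 149 and 222 in CompE (log2 difference 1.13, adjusted p = 0.128). FOXA2, a forkhead factor of gut endoderm, read 472, 491 and 495 against 821, 715 and 801 (0.68, adjusted p = 0.0890). Without the lowest 40% of probe sets, FOXA2, PROX1 and RFX3 passed. ST18, a zinc finger factor, was below background in both groups.

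Downstream, most hormone genes were at background. Of 19 genes for gut hormones and serotonin synthesis, 17 were below background in both groups and 0 passed in the limma fit. With an unadjusted p under 0.05, 0 were higher and 1 lower, where 14.2% of all named genes had such a p in either direction. Somatostatin (SST) read 31.3, 33.5 and 33.0 in DMSO and 21.1, 35.8 and 30.9 in CompE. Proglucagon (GCG) read 6.71, 16.2 and 9.54 against 17.3, 15.4 and 16.4, and cholecystokinin (CCK) 9.73, 5.46 and 11.6 against 9.56, 12.3 and 16.2. The brightest probe set of TPH1, the first enzyme of serotonin synthesis in the gut, read 4.89, 16.7 and 14.5 against 17.2, 10.6 and 12.1. These 4 genes overlapped between the groups and were below background, so no change in them was detectable at this signal. The other 2 genes, above background in both groups, were UCN3 and DDC, named after their values were seen. UCN3, a peptide hormone gene of the urocortin family, read 76.8, 71.8 and 59.8 in DMSO and 67.2, 70.9 and 81.2 in CompE, with overlap (log2 difference 0.077, adjusted p = 0.861). DDC, the decarboxylase of serotonin synthesis, read 1100, 1122 and 1145 in DMSO and 662, 644 and 584 in CompE. DDC's log2 difference of -0.83 did not pass here (limma adjusted p = 0.0521) and passed without the lowest 40% or 60% of probe sets. It also passed with a floor of 16, log2(intensity + 16), quantile normalization, hybridisation control centring, trend and robust options, 1 probe set a gene, and the least variable set. It did not pass with median centring, the replicate block or an array left out. Its dimmer probe set (214347_s_at) gave -0.85 without overlap (limma adjusted p = 0.116).

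Genes of the secretory granule were mixed. Of 23 measured, 0 passed in the limma fit, with a median log2 difference of -0.06. With an unadjusted p under 0.05, 5 were higher and 2 lower, beside 14.2% of all named genes in either direction. CHGB, a granule protein gene of endocrine cells, read 27.7, 22.6 and 35.8 in DMSO and 56.7, 39.3 and 50.5 in CompE. Its groups did not overlap and its CompE mean was just above background, at 1.06 times the Bacillus level (log2 difference 0.78, limma adjusted p = 0.296). CHGA, the granule protein most used to stain endocrine cells, read 28.7, 30.0 and 25.4 against 24.7, 8.17 and 17.1, below background in both groups. CHGA's groups did not overlap either, with lower values in CompE (apart by 0.674 intensity units, log2 difference -0.89). It did not pass (limma adjusted p = 0.478), and below background no direction can be read for it.

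**Figure D4:**
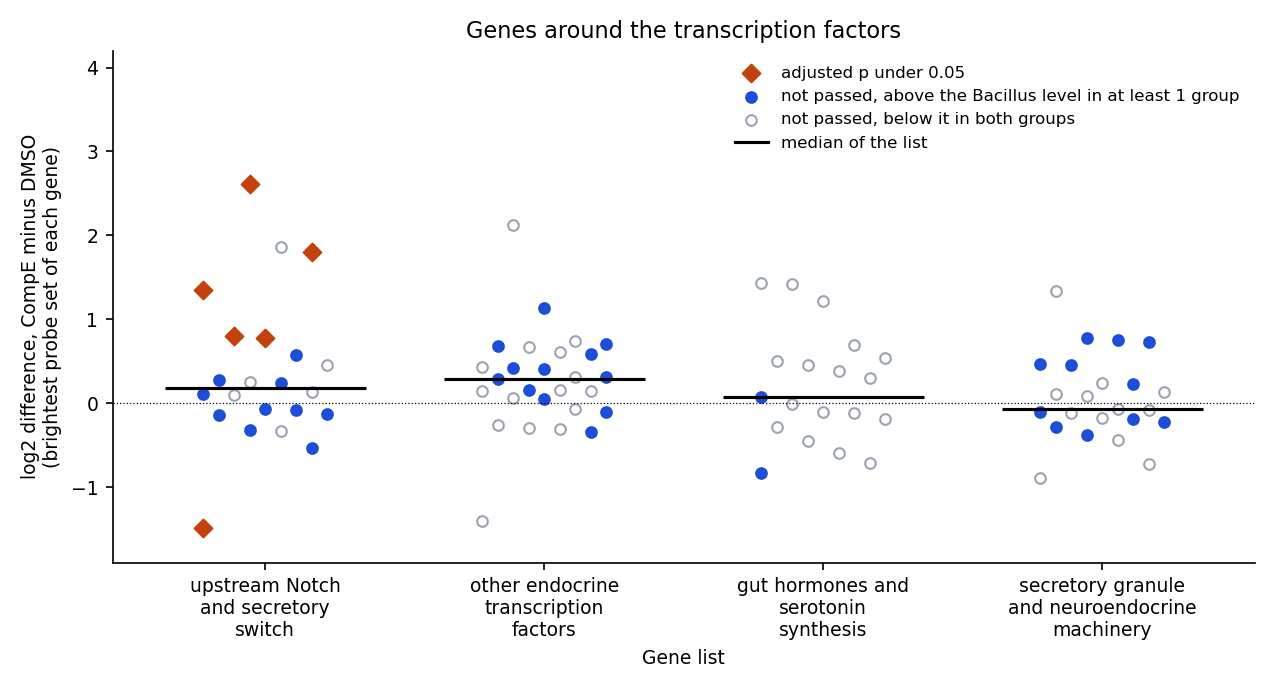
Log2 difference of CompE minus DMSO for each gene of 4 lists (points; bars are list medians). Diamonds are the 6 genes with an adjusted p under 0.05, all of them in the upstream list; filled circles did not pass but were above the Bacillus level in at least 1 group, and open circles were below it in both groups, as were 17 of the 19 hormone and serotonin genes.

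The cells carried the markers of their label: 11 of 11 colon epithelium genes with a probe set were above background in both groups. Neuronal genes matter here because ISL1, PAX6 and INSM1 are also active in neurons; 2 of 10 (TUBB3 and SYN1) were above background. The summed intensity of all 10 genes, most of it that of TUBB3, was 4491 to 4996 in DMSO and 4653 to 4875 in CompE. The neuronal RNA-binding protein genes RBFOX3, ELAVL3 and ELAVL4 were below background in both groups. Of 3 pancreatic acinar genes 1 was above background, and of 6 tuft cell genes 0 were above it in both groups. Of 4 leukocyte genes 1 was above it in both groups (LYZ, also counted with the Paneth genes). Of 8 fibroblast and endothelium genes 4 were (PECAM1, COL1A1, DCN and COL1A2). These 4 had group means of 52.01 to 165.1, a range that holds those of NEUROG3 in CompE, PAX6 and FEV. A mean above background therefore does not by itself show that a gene is expressed. Some markers of the other secretory types were higher in CompE. Of 8 goblet genes 3 rose (FCGBP, MUC2 and SPINK4) and 5 did not pass, where 0.389% of all named genes passed in either direction. The summed intensity of the 8 goblet genes was 14200 to 14480 in DMSO and 18440 to 19740 in CompE. Of 4 Paneth genes 1 rose (DEFA6) and 3 did not pass, with sums of 2963 to 3320 and 3863 to 4058. The difference in PLA2G2A alone (means 1444 and 2364, limma adjusted p = 0.0573) was larger than that in the mean sum. LYZ had lower values in CompE (1580 and 1271, limma adjusted p = 0.385). None of these goblet and Paneth calls remained when an array was left out. The part of these markers in the values of the endocrine factors was not tested.

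The genes whose log2 values ran most like those of NEUROG3 over the 6 arrays were FAM89B, SLC25A16, ITGA2, IPO5P1 and CNGA1 (Pearson r from 0.995 to 0.996, among 21864 probe sets above background in at least 1 group). Those most like ISL1 were PROX1, PCDHB2, RNF128, LRRCC1 and VPS41 (r from 0.995 to 0.998). With 2 groups of 3 arrays, any gene that separates the groups with little spread reaches such values, and all 10 were higher in each CompE array than in each DMSO array. PROX1 stood first for ISL1, and both were highest on CompE replicate 3 and lower on replicate 2 than on the other CompE arrays. The fixed rule names such genes only for members that pass, and none did, so these were added after the values were seen.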

How the data were processed

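The authors deposited 1 intensity for each probe set, not log transformed, and scaled the arrays to each other with dChip, per the labels and the series design text. No version of dChip and no use of mismatch probes is stated there. The text names a selection of 10,896 probes, which the table of 54674 probe sets does not apply. Values were floored at 1 before taking log2. The 62 Affymetrix controls were left out, and limma (version 3.58.1, R 4.3.3; lmFit, eBayes, two-sided) compared CompE with DMSO over the remaining 54612 probe sets, with Benjamini-Hochberg adjustment. Symbols came from the platform annotation of 2016, updated through Entrez identifiers: 41097 probe sets had 1 gene, 1800 several, and 11721 were not listed. Precision is limited by having 3 arrays a group. The labels call the cultures biological replicates.

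The members and lists were chosen with earlier results of these data known. Named were all members, ATOH1, HES1, list genes that passed (up to 6 a list), and CHGA, CHGB, SST, GCG, CCK and TPH1. Sequences are from RefSeq (GRCh38.p14).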

Additional observations from a re-analysis of the deposited data

How the results depend on the processing

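The counts of calls changed with the treatment of dim probe sets, the choice of probe sets and the variance model, and the cause was not tested. Of the members' probe sets 0 passed as reported. NEUROG3 alone passed without the lowest 40% of probe sets (6 tested), on the log2(intensity + 16) scale and with 1 probe set a gene. ISL1 alone passed without the lowest 60% (4 tested) and among the 10,896 least variable (1 tested), and both of these sets left NEUROG3 out. With a floor of 16, 2 passed, and with the trend and robust options of eBayes together, 3 passed. In the order without the lowest 40%, without the lowest 60%, floor of 16, log2(intensity + 16), trend and robust fit, 1 probe set a gene, and least variable, all probe sets that passed numbered 995, 2604, 1199, 295, 2898, 363 and 4602, against 130. In that order these were 3.04%, 11.9%, 2.2%, 0.54%, 5.31%, 1.84% and 42.2% of the probe sets tested, against 0.238%. Pathway list genes that passed numbered 6 as reported, and 11, 19, 10, 9, 21, 9 and 12. The least variable set was picked by the spread within groups, which the test divides by, so passing there is not independent of the selection. With the replicate block, 0 of all probe sets, 0 list genes and 0 member probe sets passed (NEUROG3 adjusted p = 0.433). The labels do not say whether replicate numbers pair the cultures. Deviations of same-numbered arrays from their group means correlated at 0.0126, -0.153 and -0.0335. Only for CompE replicate 1 was the best correlation with the array of its own number. These values cannot tell whether the cultures were paired. With 1 array left out, 0 to 4 of all probe sets and 0 list genes passed. Centring on the hybridisation controls moved the median of all probe sets to -0.13 and the share of higher calls from 70.0% to 47.0%. The sign turned for 3 probe sets, none of which passed in any setting: PAX4 (211176_s_at) to -0.092 with a floor of 16, PAX6 (235795_at) to -0.058 with the hybridisation controls, and, with 1 array left out, PAX4 between -0.24 and 0.52, PAX6 between -0.014 and 0.14 and RFX6 between -0.47 and 0.89. The 5 probe sets above background numbered 5 under every alternative tried for that level.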
